A study of Mus musculus with 32 samples.

Results

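The expression of 10 genes of fatty acid synthesis and desaturation, out of 36595 gene rows in the count matrix, was followed through cultured mouse islets. They are Srebf1, Acly, Acaca, Fasn, Scd1, Scd2, Elovl5, Elovl6, Fads1 and Me1, each taken as the row that carries its symbol, and all 10 passed the filter on low counts that left 16428 genes for testing. The donors were C57BL/6NHsd mice of both sexes, 10 weeks old, whose Iapp locus had been replaced by the human gene (hIAPP) and their wild-type littermates with mouse Iapp (mIAPP). Human islet amyloid polypeptide, a hormone that beta cells release with insulin, can aggregate into amyloid, which the mouse peptide does not. After an overnight recovery at 11.1 mM glucose all islets were cultured for 48 h in medium with 11.1 or 16.7 mM glucose, in 8 sets of experiments that each held the 4 groups, which gave 32 libraries of poly(A) RNA. The labels give neither the number of mice behind a library, nor its sex, nor whether hIAPP mice carried the human gene on one or both chromosomes.

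Fatty acid synthesis starts from citrate that leaves the mitochondria. ATP citrate lyase (Acly) splits it to acetyl-CoA, acetyl-CoA carboxylase (Acaca) makes malonyl-CoA, and fatty acid synthase (Fasn) builds palmitate with NADPH, part of which malic enzyme (Me1) provides. Elongases and desaturases then lengthen the chains and add double bonds, and the transcription factor SREBP-1, encoded by Srebf1, is a main activator of the pathway. In beta cells malonyl-CoA is also known as a signal that rises with glucose and restrains fatty acid oxidation.

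Libraries held 16.1 M to 43.7 M estimated counts. The share of counts from mitochondrially encoded genes, which often rises in stressed or damaged cells, had a median of 3.5% with hIAPP against 7.29% with mIAPP at 16.7 mM glucose, and of 18.1% against 20.4% at 11.1 mM. It was below 10% in 8, 5, 2 and 3 of the 8 libraries of these groups, and the mIAPP library of set 7 at 16.7 mM stood at 37.0%. Beta cell markers were abundant: the summed CPM (read counts scaled to library size) of 8 beta cell genes lay between 135000 and 323000 in the libraries. Of 8 adipocyte markers, counted because fat cells express this pathway strongly, Adipoq was at no more than 0.148 CPM and Lep at no more than 0.153 CPM in any library, with Lep at 0 in all libraries at 16.7 mM. Fabp4 reached 10.6 CPM, Plin1 3.8 CPM and Retn 2.01 CPM. Mean Fabp4 was 1.38 CPM with hIAPP and 2.93 CPM with mIAPP at 16.7 mM, and 4.43 and 4.34 CPM at 11.1 mM. Pparg, which reached the highest level of the 8 markers (12.7 CPM), ran the other way. Its means were 11.3 CPM with hIAPP and 9.12 CPM with mIAPP at 16.7 mM, and 6.31 and 6.21 CPM at 11.1 mM. The sum of the 8 markers ran from 8.28 to 17.9 CPM, and its part in the results was not tested. Because these are bulk libraries, fewer cells of a type and less RNA per cell cannot be told apart.

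**Figure D1:**
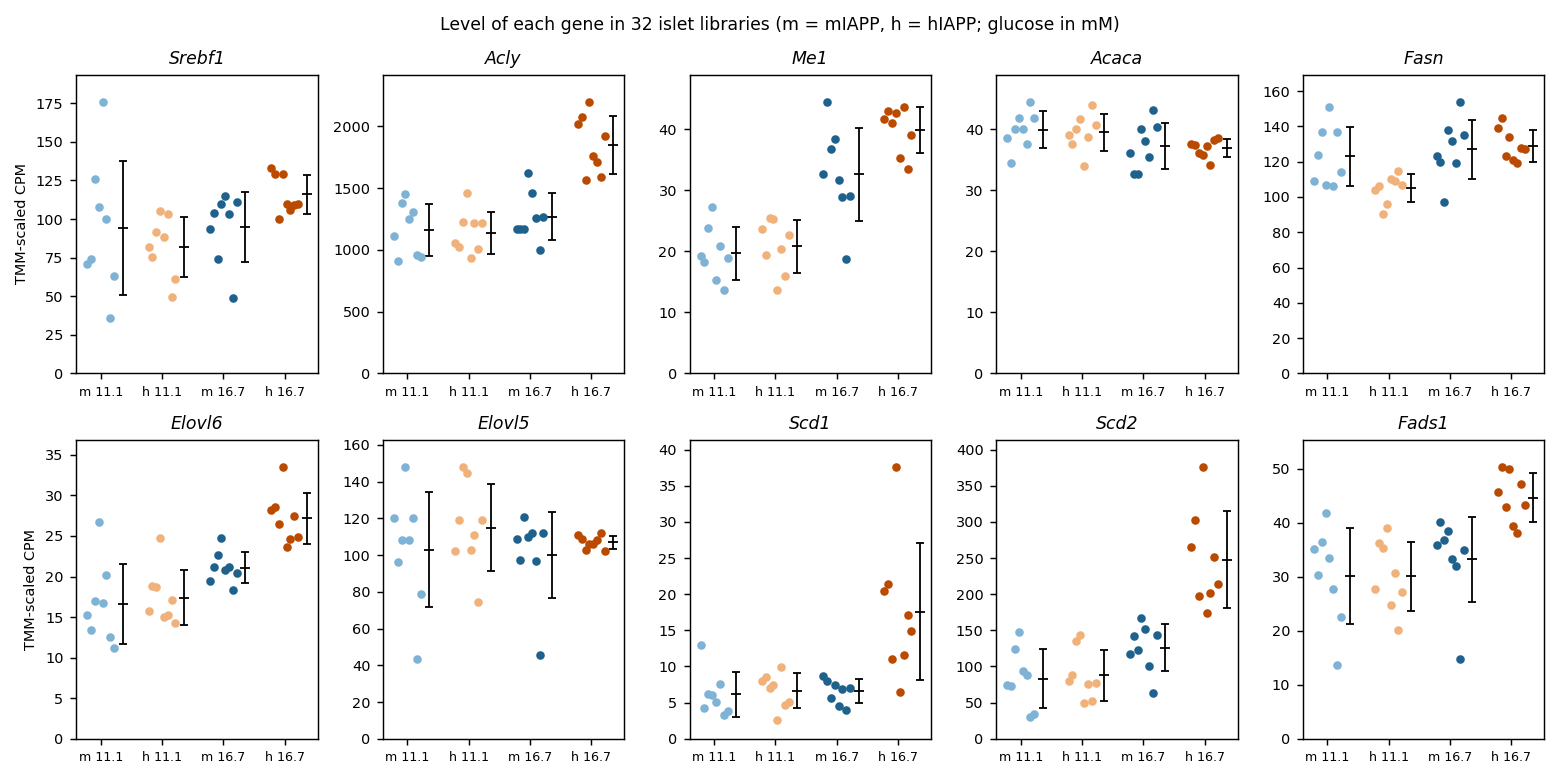
Level of each of the 10 genes (y axis, TMM-scaled CPM, linear from 0) in the 8 libraries of each genotype and glucose group, with black bars for the mean ± SD. Scd1, Scd2 and Acly are highest in hIAPP islets at 16.7 mM, whereas the Acaca panel stays between 32.7 and 44.5 CPM in all groups.

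Levels between genes were compared per kilobase of exon. On that scale Acly stood far above the others, at 402 ± 50.8 CPM per kb (SD, n = 8) for hIAPP at 16.7 mM and 252 ± 46.1 for mIAPP at 11.1 mM. In the former group Scd2 followed at 45.5 ± 12.2 CPM per kb, then Elovl5 at 38.5 ± 1.32 and Srebf1 at 26.9 ± 2.95. Fads1, at 12.9 ± 1.32 CPM per kb, Fasn, at 12.9 ± 0.909, and Me1, at 11.1 ± 1.04, lay within about 2 SD of one another. Elovl6, Acaca and Scd1 were lowest, at 4.43 ± 0.51, 3.88 ± 0.155 and 3.63 ± 1.97 CPM per kb, again within their spread. In mIAPP islets at 11.1 mM the order differed mainly in Scd2, which at 15.3 ± 7.4 CPM per kb stood below Elovl5 at 36.9 ± 11.2 and Srebf1 at 21.9 ± 10.1. Thus the 2 stearoyl-CoA desaturase genes were unequal throughout, Scd2 being the predominant one.

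At 16.7 mM glucose, 6 of the 10 genes were higher in hIAPP than in mIAPP islets and none was lower. The desaturase genes Scd1 and Scd2 rose most, 2.56-fold and 2.01-fold, followed by Acly (1.47-fold), Fads1 (1.39-fold), Elovl6 (1.29-fold) and Me1 (1.25-fold). The 2 enzymes that make palmitate, Acaca and Fasn, had fold changes of 0.992 and 1.02. Across all tested genes 20.5% were called (adjusted p under 0.05 by edgeR's quasi-likelihood test with Benjamini-Hochberg adjustment), 9.27% as higher. The median log2 fold change of the 10 genes was 0.35, against -0.01 over all tested genes. Groups without overlap were seen for 1 of the 10 genes, Scd2, and for 2.98% of all tested genes.

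Mitochondrial share and cell markers differed between the same groups. Of the endothelial markers 5 of 7 were lower in hIAPP islets at 16.7 mM, their summed level being 18.5 to 52.1 CPM against 36.3 to 118 CPM. Beta cell markers were lower for 5 of 8, with sums of 135000 to 199000 CPM against 161000 to 253000 CPM. Macrophage markers were higher for 1 of 7, with sums of 72.1 to 133 CPM and 65.2 to 126 CPM. Ductal markers ran the other way, with 1 of the 5 tested higher and the sum of all 6 at 568 to 1290 CPM (median 903) against 437 to 869 CPM (median 607). The part of these differences in the results was not tested. Without the set as a block 3 of the 10 genes passed (Acly, Scd1 and Scd2), against 7.92% of all genes. With the mitochondrial level as a covariate 2 passed, Acly and Scd1, against 4.58% of all genes. Among libraries with less than 10% mitochondrial counts Acly, Scd1, Scd2, Elovl6 and Fads1 passed, against 6.61% of all genes.

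At 11.1 mM glucose no genotype difference was called among the 10 genes, which does not show that none exists. The 95% interval of the fold was 0.77 to 1.47 for Scd1, 0.803 to 1.45 for Scd2 and 0.913 to 1.07 for Acaca. None of the 10 genes passed at 11.1 mM by edgeR, DESeq2 or limma voom, and 0.128% of all genes were called by edgeR. One gene, Fasn, had an unadjusted p under 0.05, with a log2 difference of -0.23 ± 0.08 (SE) and an adjusted p of 0.722. The median log2 difference was 0.05 against 0.00 over all genes. All 10 genes overlapped between the groups, as did all but 0.0913% of the tested genes.

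Between 11.1 and 16.7 mM glucose more of the 10 genes were called in hIAPP than in mIAPP islets, as were more of all tested genes. Such counts do not test whether the responses differ, and the interaction that does is given below. In hIAPP islets 8 of 10 genes were higher and none lower, in a comparison that called 65.5% of all tested genes (32.2% of all tested genes were called higher). Scd2 (2.98-fold), Scd1 (2.59-fold) and Me1 (1.95-fold) rose most, and Acaca (0.937-fold) and Elovl5 (0.965-fold) did not pass. In mIAPP islets 3 of 10 rose, Me1 (1.66-fold), Scd2 (1.60-fold) and Elovl6 (1.29-fold), where 47.5% of all tested genes were called and 24.9% were called higher. The medians were 0.63 in hIAPP and 0.11 in mIAPP islets on the log2 scale, against -0.02 and -0.03 over all genes. Groups did not overlap for 4 of 10 genes in hIAPP islets (Acly, Fasn, Scd2 and Me1; 22.7% of all genes) and for 0 of 10 in mIAPP islets (4.05% of all genes). These comparisons share libraries with the genotype comparisons, so their values stand side by side and are not independent of one another.

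Cell markers also differed with glucose, in comparisons that called 65.5% (hIAPP) and 47.5% (mIAPP) of all tested genes. Of the beta cell markers 7 of 8 were lower and 1 higher at 16.7 mM in hIAPP islets. In mIAPP islets 3 were lower and 1 higher. Stellate and fibroblast markers were lower for 5 of 7 in hIAPP and 2 of 7 in mIAPP islets. Of the macrophage markers 5 of 7 fell in hIAPP islets, from sums of 158 to 289 CPM to 72.1 to 133 CPM, and 6 of 7 fell in mIAPP islets, from 142 to 259 CPM to 65.2 to 126 CPM. All 7 endothelial markers fell in hIAPP islets, from 54.7 to 143 CPM to 18.5 to 52.1 CPM, and 4 of 7 in mIAPP islets, from 59.5 to 161 CPM to 36.3 to 118 CPM. The ductal sum was higher at 16.7 mM, at 568 to 1290 CPM (median 903) against 296 to 569 CPM (median 337) with hIAPP, where 2 of the 5 tested markers rose and 1 fell. With mIAPP it was 437 to 869 CPM (median 607) against 291 to 430 CPM (median 362), and 1 of 5 rose. Their part in the glucose results was not tested. With the mitochondrial level as covariate 3 genes, Scd1, Elovl6 and Me1, still passed in hIAPP islets, where 19.4% of all genes did, and among libraries under 10% mitochondrial counts 6 did, all but Srebf1 and Fasn of the 8, against 22.6% of all genes. In mIAPP islets 2 genes, Elovl6 and Me1, passed with the covariate, against 35.3% of all genes. Among libraries under 10% 2 passed there, Me1 as higher and Srebf1 as lower, against 30.2% of all genes.

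The interaction, the glucose difference in hIAPP islets minus that in mIAPP islets, was called for 2 of 10 genes and for 3.12% of all genes, 2.17% as positive. Acly had a log2 interaction of 0.58 ± 0.13 (adjusted p = 0.0124, edgeR) and Scd1 one of 1.27 ± 0.31 (adjusted p = 0.0214), each positive in 8 of 8 sets. Scd2, at 0.90 ± 0.29, missed the threshold with an adjusted p of 0.0876. Neither Acly nor Scd1 passed without set 1 (0.54 and 1.14, adjusted p = 0.077 and 0.1), and Scd1 did not without set 4 (1.13, adjusted p = 0.0505). Without the set as a block, with the mitochondrial covariate and among libraries under 10% mitochondrial counts, the interaction of Acly was 0.58, 0.35 and 0.59 (adjusted p = 0.0859, 0.156 and 0.282). That of Scd1 was 1.32, 1.06 and 1.32 (adjusted p = 0.133, 0.158 and 0.285). None of the 10 genes passed in these 3 fits, which called 1.19%, 1.58% and 0.0408% of all genes.

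**Figure D2:**
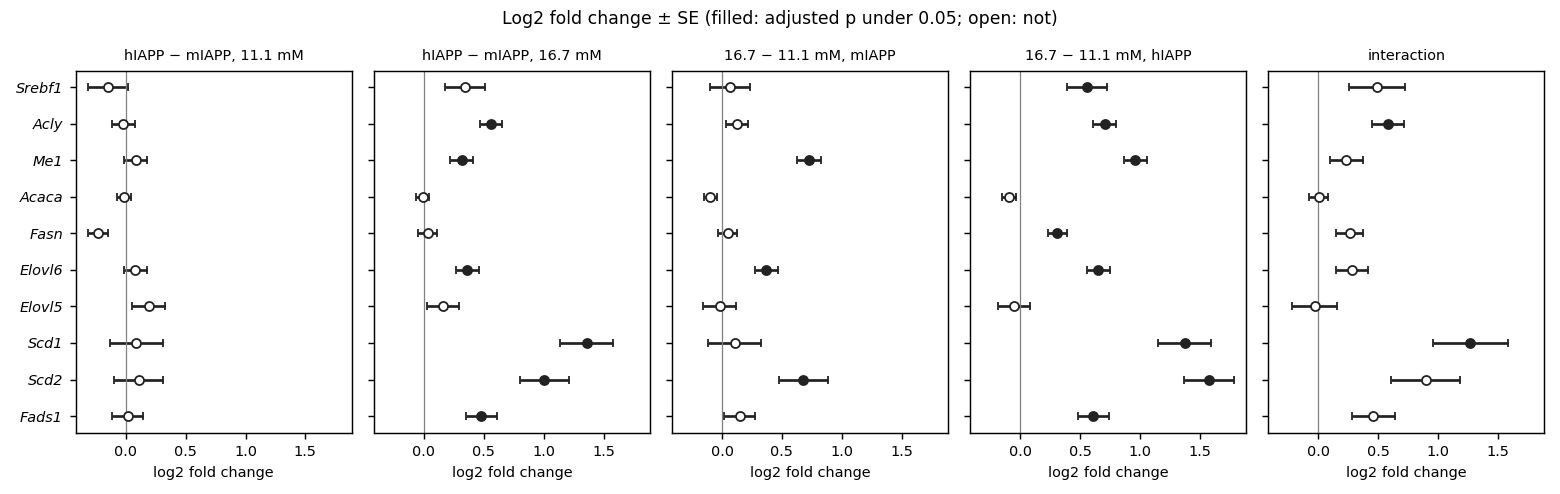
Log2 fold change ± SE of each gene (x axis) in the 5 comparisons (panels), filled where the adjusted p was under 0.05. No point is filled at 11.1 mM, 6 are filled for genotype at 16.7 mM, 3 and 8 for glucose in mIAPP and hIAPP islets, and 2 for the interaction.

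Srebf1 (chr11:60199089-60222581, minus strand, GRCm38) encodes SREBP-1, a factor held in the endoplasmic reticulum membrane until it is cleaved, so its RNA is not a measure of its activity. In hIAPP islets at 16.7 mM the 8 libraries ran from 100 to 133 CPM with a median of 110, and in mIAPP islets from 49.1 to 115 with a median of 103. At 11.1 mM the ranges were 49.8 to 105 (median 85.0) in hIAPP and 36.1 to 176 (median 87.2) in mIAPP islets. The groups overlapped at both concentrations, and the mIAPP values were the more scattered. Srebf1 rose with glucose in hIAPP islets, by a log2 fold change of 0.56 ± 0.17 (adjusted p = 0.0049, higher in 8 of 8 sets), whereas in mIAPP islets the difference was 0.07 ± 0.17 (adjusted p = 0.757). The genotype difference at 16.7 mM was 0.34 ± 0.17 (adjusted p = 0.136; 95% interval of the fold, 0.998 to 1.61). Of the alternative fits run, it passed in the one with the summed Y-linked level as a covariate (0.60, adjusted p = 0.0356). With the mitochondrial covariate the genotype difference was -0.06 (adjusted p = 0.941), and without set 7 it was 0.22 (adjusted p = 0.377). The rise in hIAPP islets became 0.18 (adjusted p = 0.501) among libraries under 10% mitochondrial counts, and with the mitochondrial covariate the sign turned (-0.14, adjusted p = 0.705). In mIAPP islets the libraries under 10% gave a difference of -0.48 (adjusted p = 0.0348).

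Acly (chr11:100476353-100528000, minus strand) supplies the acetyl-CoA. Its level in hIAPP islets at 16.7 mM ran from 1570 to 2200 CPM (median 1840) and in mIAPP islets from 1000 to 1620 (median 1220). The ranges overlapped slightly, yet hIAPP was the higher library in 8 of 8 sets. At 11.1 mM hIAPP islets held 935 to 1460 CPM (median 1140) and mIAPP islets 908 to 1450 (median 1180). The genotype difference at 16.7 mM was a log2 fold change of 0.56 ± 0.09 (adjusted p = 0.000153), and at 11.1 mM -0.02 ± 0.09 (adjusted p = 0.971). Glucose raised Acly by 0.71 ± 0.09 with hIAPP (adjusted p = 5.82e-07), without overlap between the groups, and its difference in mIAPP islets was 0.12 ± 0.09 (adjusted p = 0.28). With the mitochondrial covariate the rise in hIAPP islets was 0.31 (adjusted p = 0.0595).

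Me1 (chr9:86581371-86695953, minus strand), cytosolic malic enzyme, yields NADPH from malate. Its median was 41.3 CPM (33.4 to 43.6) in hIAPP and 32.1 CPM (18.8 to 44.5) in mIAPP islets at 16.7 mM, with 21.5 CPM (13.7 to 25.4) and 19.1 CPM (13.7 to 27.2) at 11.1 mM. Of the 10 genes Me1 had the largest log2 glucose difference in mIAPP islets, a log2 rise of 0.73 ± 0.10 (adjusted p = 1.54e-06), and in hIAPP islets it rose by 0.96 ± 0.10 (adjusted p = 6.92e-09), each in 8 of 8 sets. The groups were separate in hIAPP islets and overlapped in mIAPP islets. At 16.7 mM it was higher in hIAPP islets by 0.32 ± 0.10 (adjusted p = 0.0221, 7 of 8 sets). That call was lost without the mIAPP library of set 7 (0.26, adjusted p = 0.0678), and without the 4 libraries of set 1, 6 or 7 the difference was 0.31, 0.28 and 0.26 (adjusted p = 0.0692, 0.0896 and 0.0857). It was also lost without the block (0.29, adjusted p = 0.187), with the mitochondrial covariate (0.09, adjusted p = 0.798), among libraries under 10% mitochondrial counts (0.16, adjusted p = 0.346) and with the Y-linked covariate (0.34, adjusted p = 0.0576).

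Acaca (chr11:84129672-84401651, plus strand) encodes acetyl-CoA carboxylase 1, the committed step of the pathway, and was the least variable of the 10 genes. Its 32 libraries ran from 32.7 to 44.5 CPM, and all groups overlapped. The log2 genotype difference was -0.01 ± 0.06 at either glucose concentration (adjusted p = 0.903 at 16.7 mM and 0.968 at 11.1 mM), with a 95% interval of the fold of 0.915 to 1.08 at 16.7 mM. With glucose Acaca was lower in 7 of 8 hIAPP sets and 8 of 8 mIAPP sets, by -0.09 ± 0.06 and -0.10 ± 0.06, without passing (adjusted p = 0.142 and 0.16). A stricter filter (mean of at least 5 CPM) gave -0.19 (adjusted p = 0.00233) and -0.17 (adjusted p = 0.0084), but the same filter shifted the median of all shared genes by -0.10 and -0.07.

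Fasn (chr11:120805846-120824547, minus strand), whose protein assembles palmitate, showed no genotype difference at 16.7 mM. Its libraries ran from 119 to 145 CPM (median 128) in hIAPP and from 97.0 to 154 (median 128) in mIAPP islets. At 11.1 mM hIAPP islets held 90.3 to 115 CPM (median 107) and mIAPP islets 106 to 151 (median 119), so the lower group here was hIAPP, in 7 of 8 sets. The 16.7 mM difference was 0.03 ± 0.08 on the log2 scale (adjusted p = 0.81; 95% interval of the fold, 0.910 to 1.15). With glucose Fasn rose by 0.31 ± 0.08 in hIAPP islets (adjusted p = 0.00157, 8 of 8 sets) without overlap, and differed by 0.05 ± 0.08 in mIAPP islets (adjusted p = 0.653). The rise did not pass with the mitochondrial covariate (0.21, adjusted p = 0.287) or among libraries under 10% (0.45, adjusted p = 0.0698).

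Elovl6 (chr3:129532355-129638495, plus strand) lengthens palmitate to stearate. Its level was 23.6 to 33.5 CPM (median 26.9) in hIAPP and 18.3 to 24.7 CPM (median 21) in mIAPP islets at 16.7 mM, and 14.3 to 24.8 (median 16.4) and 11.2 to 26.7 (median 16) at 11.1 mM. hIAPP was higher in 8 of 8 sets at 16.7 mM, although the ranges overlapped. The log2 difference was 0.36 ± 0.09 (adjusted p = 0.00874), and it did not pass without the block (0.36, adjusted p = 0.0744) or with the mitochondrial covariate (0.25, adjusted p = 0.283). Glucose raised Elovl6 in both genotypes, by 0.65 ± 0.09 with hIAPP (adjusted p = 2.0e-06) and 0.37 ± 0.10 with mIAPP (adjusted p = 0.00256; 0.19 and adjusted p = 0.229 among libraries under 10%).

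Elovl5 (chr9:77917364-77984519, plus strand), which extends polyunsaturated chains, passed in no comparison. The hIAPP libraries at 16.7 mM lay close together, between 102 and 112 CPM, whereas the other groups spread from 45.6 to 121 (mIAPP, 16.7 mM), 74.7 to 148 (hIAPP, 11.1 mM) and 43.2 to 148 CPM (mIAPP, 11.1 mM). Its log2 genotype difference at 16.7 mM was 0.16 ± 0.14 (adjusted p = 0.41; 95% interval of the fold, 0.917 to 1.36). Without the mIAPP library of set 7 it was 0.07 (adjusted p = 0.751), and without all of set 7 it was -0.01 (adjusted p = 0.941). The glucose differences were -0.05 ± 0.14 with hIAPP (adjusted p = 0.75) and -0.02 ± 0.14 with mIAPP (adjusted p = 0.915).

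The 2 elongases thus changed unequally with glucose. Elovl6 counts made up 13.4 ± 2.46% of the counts of both genes in hIAPP islets at 11.1 mM and 20.2 ± 1.77% at 16.7 mM, and 14.4 ± 3.54% and 18.1 ± 4.45% in mIAPP islets (SD, n = 8). The log2 ratio of Elovl6 to Elovl5 rose by 0.73 ± 0.30 (SD over 8 sets) in hIAPP and by 0.40 ± 0.13 in mIAPP islets, each in 8 of 8 sets. Both had an exact p of 0.00781 in a two-sided sign-flip permutation test, the smallest 8 sets can give, and 0.0391 after adjustment over the 10 ratio tests. For genotype at 16.7 mM the ratio differed by 0.22 ± 0.41 (exact permutation p = 0.156, adjusted 0.26), and the interaction of 0.33 ± 0.36 did not pass (exact permutation p = 0.0547, adjusted 0.109).

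Scd1 (chr19:44394455-44407879, minus strand) and Scd2 (chr19:44293674-44306864, plus strand) are neighbouring genes for stearoyl-CoA desaturases, which put the first double bond into palmitate and stearate. Scd1 ran from 6.43 to 37.6 CPM (median 16) in hIAPP islets at 16.7 mM and from 3.97 to 8.68 (median 7.01) in mIAPP islets. At 11.1 mM it lay at 2.54 to 9.91 (median 7.20) and 3.34 to 13.0 (median 5.52). The highest value belonged to set 4 and the lowest hIAPP value at 16.7 mM to set 5, which reached into the mIAPP range. Scd2 had the higher level, at 174 to 376 CPM (median 233) in hIAPP and 63.3 to 167 CPM (median 132) in mIAPP islets at 16.7 mM, and at 48.8 to 144 (median 78.5) and 30.1 to 148 (median 81.6) at 11.1 mM. For Scd2 every hIAPP library at 16.7 mM exceeded every library of the other 3 groups.

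The genotype difference at 16.7 mM was 1.36 ± 0.22 on the log2 scale for Scd1 (adjusted p = 9.81e-05) and 1.00 ± 0.21 for Scd2 (adjusted p = 0.00133), with 8 of 8 sets higher for both. At 11.1 mM it was 0.09 ± 0.22 and 0.11 ± 0.20 (adjusted p = 0.939 and 0.92). Glucose raised Scd1 by 1.37 ± 0.22 (adjusted p = 8.4e-06) and Scd2 by 1.58 ± 0.21 (adjusted p = 5.73e-07) in hIAPP islets. In mIAPP islets Scd1 differed by 0.10 ± 0.22 (adjusted p = 0.719), while Scd2 rose by 0.68 ± 0.20 (adjusted p = 0.00868, 7 of 8 sets). That last call was lost without set 8 (0.48, adjusted p = 0.0516), without the block (0.60, adjusted p = 0.0766), with the mitochondrial covariate (0.34, adjusted p = 0.168) and among libraries under 10% (0.23, adjusted p = 0.359). With the mitochondrial covariate Scd2 also did not pass for genotype (0.51, adjusted p = 0.205) or for glucose in hIAPP islets (0.72, adjusted p = 0.0663). Its interaction passed with DESeq2 (0.90, adjusted p = 0.0244) and without set 8 (1.09, adjusted p = 0.0374).

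**Figure D3:**
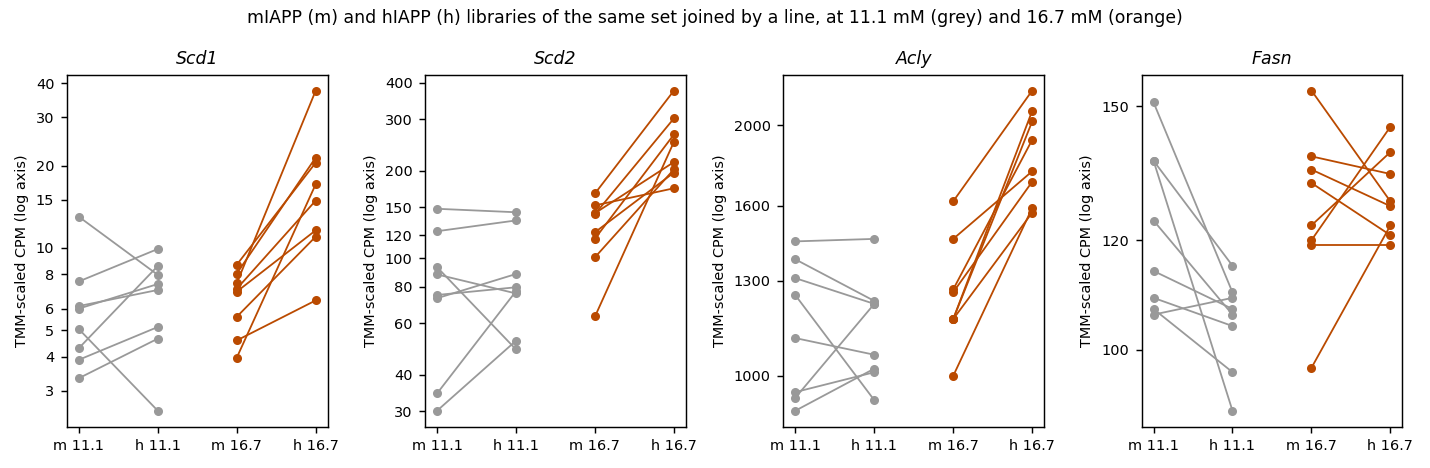
Level (y axis, TMM-scaled CPM, log scale) of Scd1, Scd2, Acly and Fasn in the mIAPP and hIAPP library of each set, joined by a line, at 11.1 mM (grey) and 16.7 mM (orange). All 8 orange lines rise for Scd1, Scd2 and Acly, and 3 of 8 do for Fasn.

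For the 2 desaturase genes no change in balance passed the adjustment. Scd1 made up 6.25 ± 1.60% of their joint counts with hIAPP against 5.11 ± 1.30% with mIAPP at 16.7 mM, and 7.33 ± 2.47% and 7.77 ± 3.71% at 11.1 mM (SD, n = 8). The log2 ratio was higher in hIAPP islets at 16.7 mM by 0.31 ± 0.41 (7 of 8 sets; exact permutation p = 0.0391, adjusted 0.0978) and fell with glucose in mIAPP islets by 0.55 ± 0.53 (7 of 8 sets; exact permutation p = 0.0312, adjusted 0.0978).

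Fads1 (chr19:10182888-10196877, plus strand), the delta-5 desaturase of polyunsaturated chains, held 38.0 to 50.3 CPM (median 44.4) in hIAPP and 14.7 to 40.2 CPM (median 35.4) in mIAPP islets at 16.7 mM. At 11.1 mM it ran from 20.1 to 39.1 (median 29.2) and from 13.6 to 41.7 (median 32). The ranges overlapped, with hIAPP the higher library of all 8 sets at 16.7 mM. The log2 difference was 0.48 ± 0.13 (adjusted p = 0.0113), which did not pass without the block (0.42, adjusted p = 0.116) or with the mitochondrial covariate (0.22, adjusted p = 0.534), and was 0.31 (adjusted p = 0.0156) without set 7. Glucose raised Fads1 in hIAPP islets by 0.61 ± 0.13 (adjusted p = 0.000231; 0.14 and adjusted p = 0.654 with the mitochondrial covariate), and in mIAPP islets the difference was 0.15 ± 0.13 (adjusted p = 0.357).

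Most of these genes were lower in libraries with more mitochondrial counts. After removal of group means over the 32 libraries, Pearson's r with the log2 mitochondrial share was -0.77 for Scd2, -0.73 for Acly, -0.72 for Fads1, -0.71 for Srebf1, -0.70 for Me1, -0.67 for Elovl5 and -0.62 for Elovl6. It was -0.25 for Scd1, 0.16 for Acaca and 0.18 for Fasn. These values describe libraries that share sets and a fixed total of counts. In hIAPP islets at 11.1 mM the 2 libraries under 10% held 135 and 144 CPM of Scd2 and the other 6 between 48.8 and 88.5. In mIAPP islets at 11.1 mM the 3 libraries under 10% held 93.4 to 148 CPM of Scd2 and the other 5 between 30.1 and 88.2. Srebf1 split the same way in mIAPP islets, at 108 to 176 against 36.1 to 100 CPM. For these 2 genes the ranges overlapped in the other groups that had libraries on both sides of 10%. In mIAPP islets at 16.7 mM the 5 libraries under 10% held 117 to 167 CPM of Scd2 and 74.1 to 115 CPM of Srebf1, and the other 3 held 63.3 to 143 and 49.1 to 111 CPM. Srebf1 in hIAPP islets at 11.1 mM ran from 91.3 to 105 CPM against 49.8 to 103 CPM. The 8 hIAPP libraries at 16.7 mM were all under 10% and held 174 to 376 CPM of Scd2. Some of the remaining genes split at 10% too. In hIAPP islets at 11.1 mM Acly (1230 to 1460 against 935 to 1220 CPM), Elovl5 (145 to 148 against 74.7 to 119) and Me1 (25.3 to 25.4 against 13.7 to 23.6) were higher under 10%. Fasn was lower there (90.3 to 96.3 against 104 to 115 CPM). Me1 also split in mIAPP islets at 16.7 mM (31.6 to 44.5 against 18.8 to 29.0 CPM).

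**Figure D4:**
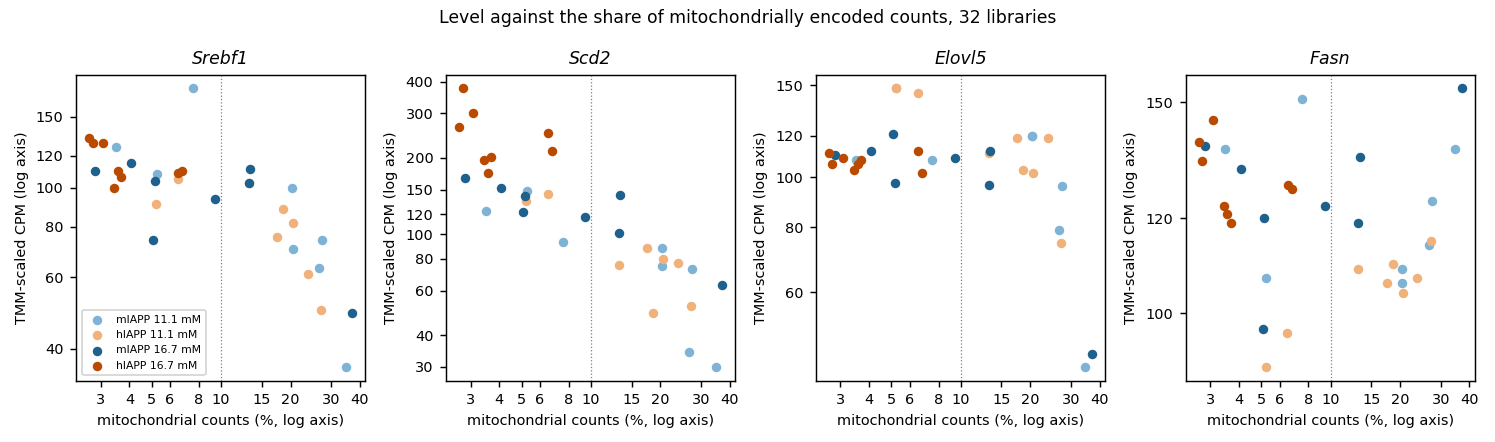
Level (y axis, TMM-scaled CPM, log scale) of Srebf1, Scd2, Elovl5 and Fasn against the percentage of mitochondrially encoded counts (x axis, log scale) in 32 libraries, coloured by group, with a dotted line at 10%. Srebf1, Scd2 and Elovl5 run downwards to the right and Fasn does not.

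**Figure D5:**
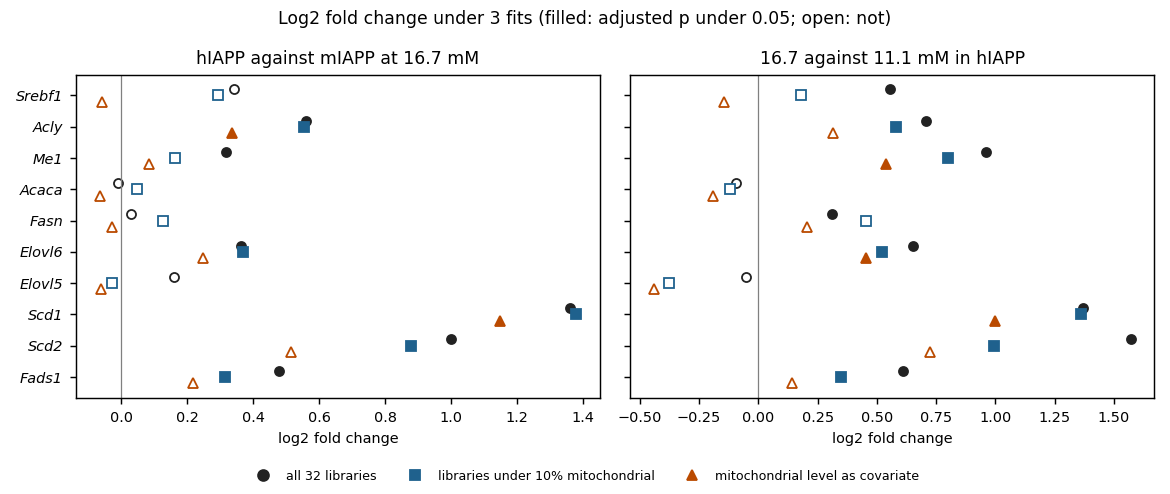
Log2 fold change (x axis) of each gene for genotype at 16.7 mM (left) and for glucose in hIAPP islets (right) with all 32 libraries, with libraries under 10% mitochondrial counts, and with the mitochondrial level as covariate, filled where the adjusted p was under 0.05. On the left Acly and Scd1 are filled in all 3 fits.

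Within groups the genes did not form one block. Over the 32 libraries with group means removed, Fads1 followed Elovl5 (r = 0.93) and Scd2 (r = 0.87), and Scd2 followed Elovl5 (r = 0.81), Elovl6 (r = 0.80) and Acly (r = 0.80). Srebf1 had r = 0.77 with Fads1 and 0.75 with Scd2 but 0.02 with Fasn. Fasn ran with Acaca (r = 0.44) and against Me1 (r = -0.54) and Elovl5 (r = -0.53). Among 10546 genes with a mean of at least 5 CPM, the 4 most like Fasn over the 32 libraries were Cpn1 (r = 0.86), Gcn1l1 (0.85), Naglu (0.83) and Atp6v0a1 (0.81). For Srebf1 they were Pex14 (r = 0.94), Abhd16a (0.93), Dagla (0.93) and Tmem184b (0.93). After group means were removed Cpn1 still ranked first for Fasn (r = 0.85), and Spint1 (r = 0.95) did for Srebf1.

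Promoter sequence was compared for the genes with a window in RefSeq (GRCm38.p6), which were 7 of 10. Scd1, Scd2 and Fads1, all higher in hIAPP islets at 16.7 mM, had no window and were not searched. Windows of 250 bases before to 50 after a start were searched on both strands for the sterol regulatory element of the LDL receptor gene and its core TCACNCCAC, through which SREBP acts, for the E-box CACGTG, the CCAAT box CCAAT and the GC box GGGCGG. The sterol element was found in 0 of the 7 genes (0.234% of all 32851 windows hold it) and its core in 0 (1.24%). The E-box was found in 1 (7.15%), the CCAAT box in 5 (37.4%) and the GC box in 3 (35.7%). Srebf1 has 3 windows and Me1 has 2, the second of which holds a CCAAT box. A gene was counted once if any of its windows held the motif, whereas the percentages are of single windows. The counts of genes and these percentages are therefore not on one scale. The Acaca window (chr11:84195188-84195487) lies inside the span given above for that gene, not at its outer end. Shown are the 250 bases before the start of Acly and Me1 (first window), which were higher in hIAPP islets at 16.7 mM, and of Fasn and Elovl5, which did not pass. Capitals mark motif matches on either strand.
Acly, chr11:100528001-100528250, minus strand: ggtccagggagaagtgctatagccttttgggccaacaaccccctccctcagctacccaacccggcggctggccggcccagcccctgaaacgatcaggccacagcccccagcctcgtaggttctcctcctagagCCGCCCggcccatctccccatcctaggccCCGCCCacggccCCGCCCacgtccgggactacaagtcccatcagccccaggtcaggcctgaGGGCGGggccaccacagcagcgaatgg
Me1, chr9:86695915-86696164, minus strand: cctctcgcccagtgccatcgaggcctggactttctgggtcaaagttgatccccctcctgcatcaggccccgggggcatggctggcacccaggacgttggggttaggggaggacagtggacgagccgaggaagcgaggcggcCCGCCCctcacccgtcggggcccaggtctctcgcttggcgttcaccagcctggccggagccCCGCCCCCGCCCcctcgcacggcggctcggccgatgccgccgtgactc
Fasn, chr11:120824548-120824797, minus strand: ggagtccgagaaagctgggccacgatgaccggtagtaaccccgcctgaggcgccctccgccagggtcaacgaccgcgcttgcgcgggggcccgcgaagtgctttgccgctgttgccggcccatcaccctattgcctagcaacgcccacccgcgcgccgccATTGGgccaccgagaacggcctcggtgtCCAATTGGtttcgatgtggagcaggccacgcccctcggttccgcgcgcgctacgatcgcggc
Elovl5, chr9:77917115-77917364, plus strand: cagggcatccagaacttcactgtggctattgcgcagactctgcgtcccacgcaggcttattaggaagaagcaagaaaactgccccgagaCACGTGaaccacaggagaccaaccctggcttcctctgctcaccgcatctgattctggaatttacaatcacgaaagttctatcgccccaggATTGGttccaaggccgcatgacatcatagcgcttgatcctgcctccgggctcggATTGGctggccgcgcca
Acly and Me1 hold GC boxes here and no CCAAT or E-box, and Acly has a CCAAT box after its start, at 38 to 42. Of the genes not shown, Elovl6, also higher in hIAPP islets at 16.7 mM, holds no match in its window. Acaca, which did not pass, holds none either, and Srebf1, which did not pass, holds both GC and CCAAT boxes. A relation between motifs and calls was not tested. Fasn holds CCAAT boxes only, a pair of which overlap on opposite strands, and Elovl5 holds an E-box at positions -161 to -156 and CCAAT boxes. A match describes letters in the window and is not a bound site.

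Some of the counts depend on how reads were shared with related genes. Of the 31-base stretches in GENCODE M21 transcripts of Acaca 33.5% also occur in other genes, mostly in Gm5182, and 36.9% of those of Me1, mostly in Gm7049. These 2 look-alike genes held 74 and 11 counts in all 32 libraries together. Scd1 shares 8.18% and Scd2 6.81%, chiefly with Scd3, which held 2334 counts in all, and Elovl6 6.52%. Acly, Fasn, Elovl5 and Fads1 shared none. Scd3 did not follow Scd1 and Scd2: its log2 genotype difference at 16.7 mM was -0.27 ± 0.15 (adjusted p = 0.183).

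Genes around the pathway were counted from lists. Their counts stand beside the shares of all tested genes called, 20.5% for genotype at 16.7 mM (9.27% higher), 65.5% for glucose with hIAPP and 47.5% with mIAPP. Of 14 genes that supply acetyl-CoA and NADPH, 5 were higher and 1 lower in hIAPP islets at 16.7 mM (median log2 0.19). With glucose 8 rose and 2 fell in hIAPP islets and 6 rose and 2 fell in mIAPP islets, and 0 passed for the interaction. Isocitrate dehydrogenase Idh1 (0.40 ± 0.11, adjusted p = 0.014) and citrate synthase Cs (0.29 ± 0.09, adjusted p = 0.0239) were higher, while mitochondrial malic enzyme Me3 was lower (-0.60 ± 0.11, adjusted p = 0.000444). Idh1 and Cs did not pass without the block (adjusted p = 0.0861 and 0.154), with the mitochondrial covariate (0.17 and 0.04, adjusted p = 0.612 and 0.913) or among libraries under 10% (adjusted p = 0.192 and 0.119). Cs also failed without the mIAPP library of set 7 (0.23, adjusted p = 0.0744), and Idh1 without set 1 (0.40, adjusted p = 0.0503). The cytosolic malate dehydrogenase Mdh1, which feeds Me1, rose with glucose by 1.32 ± 0.11 with hIAPP (adjusted p = 4.62e-10) and by 1.17 ± 0.11 with mIAPP (adjusted p = 9.3e-09).

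Among 14 tested genes for other desaturases and the elongation cycle, 3 were higher and 1 lower with hIAPP at 16.7 mM (median 0.03). Fads2, the delta-6 desaturase that works ahead of Fads1, ran from 18 to 47.8 CPM in hIAPP and from 12.5 to 21.6 CPM in mIAPP islets. It was higher by 0.69 ± 0.13 (adjusted p = 0.000677) and passed for the interaction too (0.70 ± 0.19, adjusted p = 0.0382). With the mitochondrial covariate the genotype difference was 0.53 (adjusted p = 0.0511), and the interaction call was lost in 12 of 19 alternatives, among them without the mIAPP library of set 7 (0.68, adjusted p = 0.0579) and without each of sets 1 to 7. Elovl7 was higher by 0.70 ± 0.21 (adjusted p = 0.0178) without overlap, at 9.81 to 14.7 against 6.16 to 8.63 CPM. It did not pass without the block (0.70, adjusted p = 0.0551), with the mitochondrial covariate (0.65, adjusted p = 0.169), with the Y-linked covariate (0.64, adjusted p = 0.0877) or without set 1, 2 or 6 (0.69, 0.66 and 0.71, adjusted p = 0.0531, 0.055 and 0.0517). With glucose 8 rose and 3 fell in hIAPP and 6 rose and 2 fell in mIAPP islets, among them Hsd17b12, a reductase of the elongation cycle, at 1.33 ± 0.09 (adjusted p = 4.59e-12) and 1.60 ± 0.09 (adjusted p = 4.51e-13).

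Of 18 regulators 4 were higher and 3 lower with hIAPP at 16.7 mM (median 0.13), and with glucose 10 rose and 4 fell in hIAPP and 6 rose and 3 fell in mIAPP islets. Mlxipl, which encodes the glucose-responsive factor ChREBP, was lower with hIAPP at 16.7 mM by -0.79 ± 0.12 (adjusted p = 5.12e-05), at 104 to 218 against 140 to 435 CPM. It fell with glucose in both genotypes, by 2.03 and 1.32 on the log2 scale (adjusted p = 1.11e-12 and 4.87e-09), and was the 1 regulator called for the interaction (-0.71 ± 0.17, adjusted p = 0.0176). That interaction did not pass without the block (-0.71, adjusted p = 0.308), with the mitochondrial covariate (-0.43, adjusted p = 0.296), among libraries under 10% (-0.53, adjusted p = 0.386) or without set 1 or 6 (-0.67 and -0.67, adjusted p = 0.0966 and 0.0688). Insig1, which holds SREBP in the endoplasmic reticulum and is itself an SREBP target, was higher by 0.40 ± 0.10 (adjusted p = 0.00589; 0.37 and adjusted p = 0.0927 with the mitochondrial covariate).

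Fatty acid activation and esterification genes were higher for 7 of 18 and lower for 1 with hIAPP at 16.7 mM (median 0.25), among them the acyl-CoA synthetases Acsl4 (0.73 ± 0.16, adjusted p = 0.00188) and Acsl5 (0.53 ± 0.09, adjusted p = 0.000141) and the phosphatidate phosphatase Lpin2 (0.44 ± 0.08, adjusted p = 0.000294). Acsl5 and Lpin2 also passed for the interaction (0.47 ± 0.12 and 0.44 ± 0.11, adjusted p = 0.0357 and 0.0259), calls that were lost in 9 and 8 of 19 alternatives, among them without set 1 (0.45 and 0.40, adjusted p = 0.132 and 0.13). Acsl4 did not pass for genotype with the mitochondrial covariate (0.56, adjusted p = 0.106), among libraries under 10% (0.69, adjusted p = 0.063) or with the Y-linked covariate (0.52, adjusted p = 0.0515). Of 19 fatty acid oxidation genes 1 passed in each direction, the lower one being the short-chain dehydrogenase gene Acads (-0.33 ± 0.12, adjusted p = 0.0489), with a median of -0.07. Acads lost its call in 15 of 20 alternatives, among them without the mIAPP library of set 7 (-0.26, adjusted p = 0.139). For comparison, 18 of 22 cholesterol synthesis genes, the other SREBP-driven pathway, were higher with hIAPP at 16.7 mM (median 0.66). At 11.1 mM no gene of these 6 lists passed for genotype.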

How the data were processed

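Poly(A) RNA of 32 islet libraries was sequenced from a directional kit, per the labels' protocols. The authors deposited estimated counts per gene; bcl2fastq 1.8.4, kallisto 0.45.0 and GRCm38 are named in the submitters' processing notes, and the transcript set and strand setting are not given in the sources used here. Counts were used as deposited, without further rounding. Genes were filtered by filterByExpr, scaled by TMM and tested with edgeR 4.0.16 (R 4.3.3; glmQLFit, robust) with 4 groups and the experiment set as a block, 21 residual degrees of freedom and Benjamini-Hochberg adjustment over 16428 genes at 0.05. Replicate numbers mark the 8 sets the protocol describes. Deviations from group means correlated at 0.168 to 0.362 on average within a set and at -0.0505 to -0.0238 otherwise. Removal of group means by itself lowers the values between sets. Single values within a set went down to -0.23. For each pair of groups, 4 to 6 of 8 libraries of one group correlated best with their own set in the other. The labels do not say whether replicates came from separate animals within a set, so p-values measure the spread between these libraries. No 2 libraries were identical. The SE of a log2 fold change is its absolute value over the square root of the test's F. The 95% intervals are that SE times 2.08, the t quantile for 21 degrees of freedom, on either side. The test itself uses moderated degrees of freedom, so an interval can include a fold of 1 where the unadjusted p is just under 0.05. Ratios used exact sign-flip permutation over sets. Alternatives were DESeq2 1.42.0, limma 3.58.1 (voom), other scalings, filters and covariates, and each set left out. The fitting script was tested on simulated data. The 10 genes and all lists were chosen with earlier results of these data known. All 10 genes are named in each comparison; from each of the 6 lists, up to 4 genes with the smallest p past the threshold could be named, and for Fasn and Srebf1 the genes with the highest Pearson r of log2(CPM + 0.5). Gene positions and lengths (joined exons of basic transcripts) are from GENCODE M21. The values of 1 list gene are not reported here.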

Additional observations from a re-analysis of the deposited data

Results flagged for a closer look

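A library stood apart from the other 7 of its group for 4 of the 40 combinations of gene and group examined, by Dixon's criterion at 95%, under which chance flags about 1 in 20. Scd1 was highest in the mIAPP library of set 1 at 11.1 mM, at 13.0 CPM, the next being 7.54. Elovl6 was highest in the hIAPP library of set 4 at 11.1 mM, at 24.8 CPM, the next being 18.8. The mIAPP library of set 7 at 16.7 mM, with 37.0% mitochondrial counts, was lowest for Elovl5, at 45.6 CPM (next 96.6), and for Fads1, at 14.7 CPM (next 32).

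By the interaction term of the edgeR fit, a genotype effect that differed between the glucose concentrations was called for Acly and Scd1. The log2 interactions were 0.581 (adjusted p = 0.0124) and 1.27 (adjusted p = 0.0214). Both calls were lost without the set as a block (adjusted p = 0.0859 and 0.133) and with the mitochondrial covariate (0.156 and 0.158). They were also lost among libraries of low mitochondrial share (0.282 and 0.285) and without set 1 (0.077 and 0.1). Scd1 did not pass without set 4 either (0.0505).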

How the results depend on the processing

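Of the values of the 10 genes under alternatives, 895 kept their direction and their side of the threshold, 33 no longer passed, 5 newly passed, 2 turned and 55 changed sign without passing in either fit; the cause was not tested. Srebf1 turned to -0.144 for glucose in hIAPP islets with the mitochondrial covariate and to -0.477 in mIAPP islets among libraries under 10% mitochondrial counts. Libraries under 10% leave 2 and 3 samples at 11.1 mM. Of the values of named list genes, 1419 kept their call and 146 lost it.

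The number of the 10 genes called for genotype at 16.7 mM went from 6 to 3 without the replicate block and 2 with the mitochondrial covariate, for glucose in hIAPP islets from 8 to 3 with that covariate, and for the interaction from 2 to 0 without the block, with the covariate and among libraries under 10%. Leaving out 1 set gave 5 to 6 for genotype at 16.7 mM, 0 to 3 for the interaction, and 2 to 3 for glucose in mIAPP islets.

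Over all genes, 3371 were called for genotype at 16.7 mM: 1301 without the block, 752 with the mitochondrial covariate, 1133 among libraries under 10%, 2108 without the mIAPP library of set 7, 2178 with the Y-linked covariate, and 1623 to 3841 without 1 set. At 11.1 mM 21 were called, against 35 (DESeq2), 12 (mean of at least 5 CPM) and 10 (under 10%). For glucose, 10768 were called in hIAPP islets, against 3181 (mitochondrial covariate) and 3881 (under 10%), and 7805 in mIAPP islets, against 5181 (under 10%). For the interaction, 513 were called, against 959 (DESeq2), 946 (limma voom), 196 (no block), 260 (mitochondrial covariate), 7 (under 10%) and 239 to 558 without 1 set.

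Leaving out 1 set, the log2 ratio of Elovl6 to Elovl5 ranged from 0.684 to 0.816 for glucose in hIAPP islets and from 0.359 to 0.415 in mIAPP islets, from 0.176 to 0.352 for genotype at 16.7 mM and from 0.269 to 0.43 for the interaction. The smaller number of sets limits the p these can reach. The ratio of Scd1 to Scd2 ranged from -0.131 to 0.0860 for genotype at 11.1 mM.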
